A study of Homo sapiens with 6 samples.

Results

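Loss of the von Hippel-Lindau gene is a frequent event in clear cell renal carcinoma, and several further genes are known to be lost or altered in this cancer. The 8 genes described here were taken by symbol: PBRM1, SETD2, BAP1, ARID1A, TSC1, TSC2, MTOR and NF2. Each symbol matched 1 gene of the deposited table, so that 8 of its 60708 genes are members. All 8 were among the 17401 genes that reached 10 reads in 1 sample or more, and each had 299 or more reads in every sample, so no member entered the test through 1 group alone.

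RNA was sequenced from Caki-1, an established human clear cell carcinoma line (ATCC HTB-46) that carries wild-type VHL. The VC group holds 3 samples of cells infected with the Lenti-CRISPR vector only (genotype WT), and the VHL-KO group holds 3 samples of cells infected with a Lenti-CRISPR virus that carries sgRNA-VHL (genotype VHL-knockout). Infected cells were selected with puromycin, clonal knockout lines were made, and the targeted protein was examined by immunoblot. Total RNA was taken with Trizol and sequenced on a NovaSeq. The VHL-KO cells appear to be 1 clone, so differences of a clone and the loss of VHL cannot be told apart. Nothing says that the replicates were separate cultures, so p-values measure only the spread between these samples. Reads counted on genes numbered 31789923, 28463579 and 34881739 for VC replicates 1, 2 and 3 and 29139722, 22805385 and 22628246 for VHL-KO replicates 1, 2 and 3.

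As background, PBRM1 and ARID1A are subunits of SWI/SNF complexes, which move nucleosomes along DNA, SETD2 places the trimethyl mark on histone H3 in transcribed genes, and BAP1 removes ubiquitin from histone H2A. TSC1 and TSC2 form the complex that restrains the small GTPase RHEB and with it the kinase MTOR, while NF2 encodes merlin, an activator of the Hippo kinases that keep the coactivator YAP1 out of the nucleus. PBRM1, SETD2 and BAP1 lie on the short arm of chromosome 3, which also holds VHL and is often lost in this cancer.

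The targeted gene was examined first. Expression is given as CPM, the share of reads scaled to 1e+06 with library sizes corrected by edgeR's TMM factors. VHL had 42.6, 37.8 and 40.1 CPM in the VC samples and 34.8, 30.4 and 30.5 CPM in the VHL-KO samples. Every VHL-KO sample was below every VC sample. The log2 fold change was -0.33 (standard error 0.11, edgeR adjusted p = 0.0109). An edit can disable a protein while its mRNA is still made, so this level checks the labels only in part, and 23.5% of the exonic bases of VHL are shared with a gene on the opposite strand. The call was lost without VC replicate 1 (adjusted p = 0.0862 from edgeR), without VHL-KO replicate 2 (0.0621) and with upper quartile factors (0.0905), while by library size the value was -0.53 (adjusted p = 0.000293). Under offsets for GC content and transcript length the value was -0.029 (edgeR adjusted p = 0.778).

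Of the 8 members, 5 were lower in VHL-KO cells (MTOR, SETD2, NF2, ARID1A and PBRM1), 1 was higher (TSC2), and BAP1 and TSC1 did not pass the threshold of 0.05 on the edgeR adjusted p. Across all tested genes 31.2% were called lower, 28.5% higher and 59.7% in either direction, so a call as such was common in these data. The samples of both groups did not overlap for 6 of the 8 members, against 64.7% of all tested genes. The median log2 fold change was -0.40 over the members (-0.16 with offsets for GC content and length, -0.59 by library size and -0.28 under upper quartile factors) and -0.010 over all tested genes. In bulk RNA, fewer cells that express a gene and less RNA per cell cannot be told apart.

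**Figure D1:**
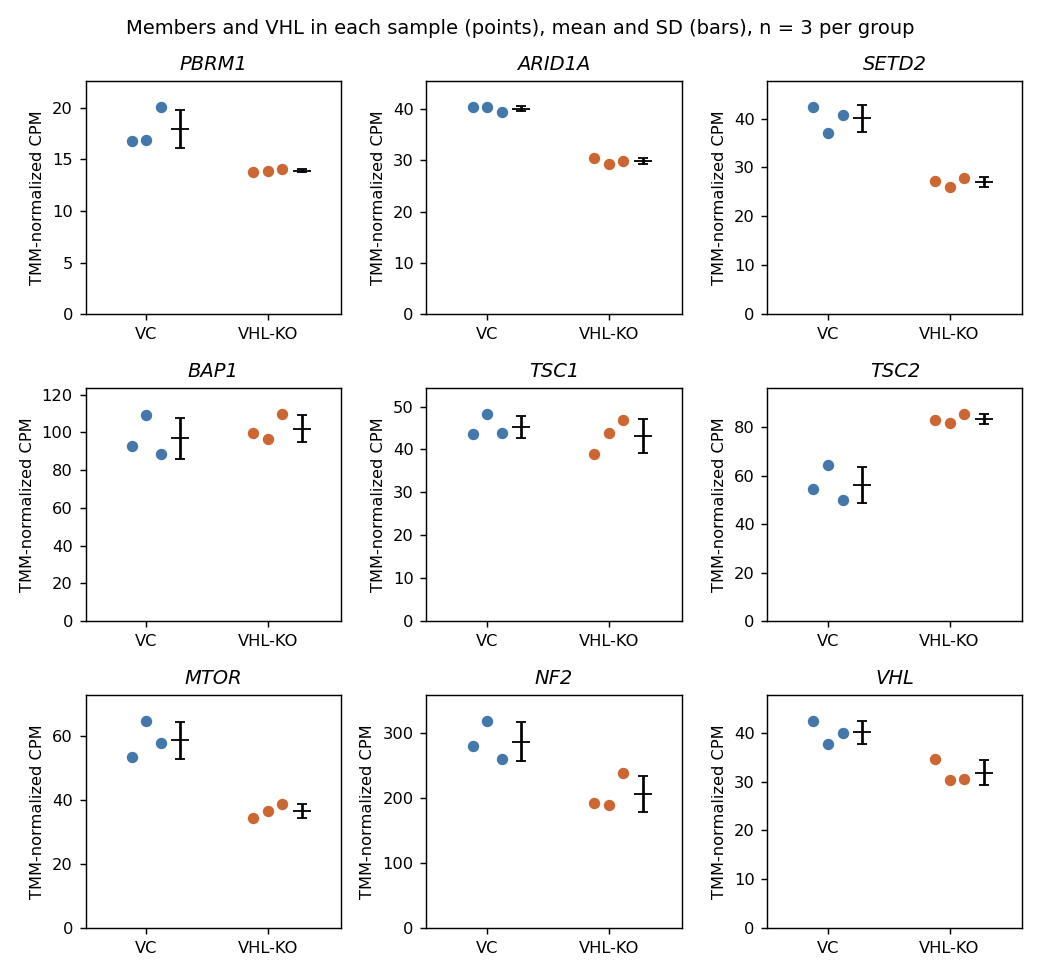
TMM-normalized CPM (vertical axis, from 0) of the 8 members and VHL in each VC and VHL-KO sample (points), with the mean and SD of 3 samples per group (bars). TSC2 was higher in every VHL-KO sample, MTOR, SETD2, NF2, ARID1A, PBRM1 and VHL were lower in every VHL-KO sample, and the groups overlapped for BAP1 and TSC1.

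Scaling and base composition bear on these sizes. The median of all tested genes moved to -0.20 when libraries were scaled by their size alone and to 0.10 under upper quartile factors. Among genes past the threshold, 47.7% were higher under TMM factors, 35.8% by library size and 55.0% under upper quartile factors. Log2 fold changes also rose with the GC content of the transcript (Spearman's rho 0.431 across 10901 genes, which are not independent replicates). A fit with offsets per library that take out the trend with GC content and transcript length was therefore set beside the members; it also removes any biological change that follows GC content. Under these offsets 4 members were lower (31.2% of all genes) and 1 was higher (29.1% of all genes). The part of GC content in the members' changes was not tested.

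**Figure D2:**
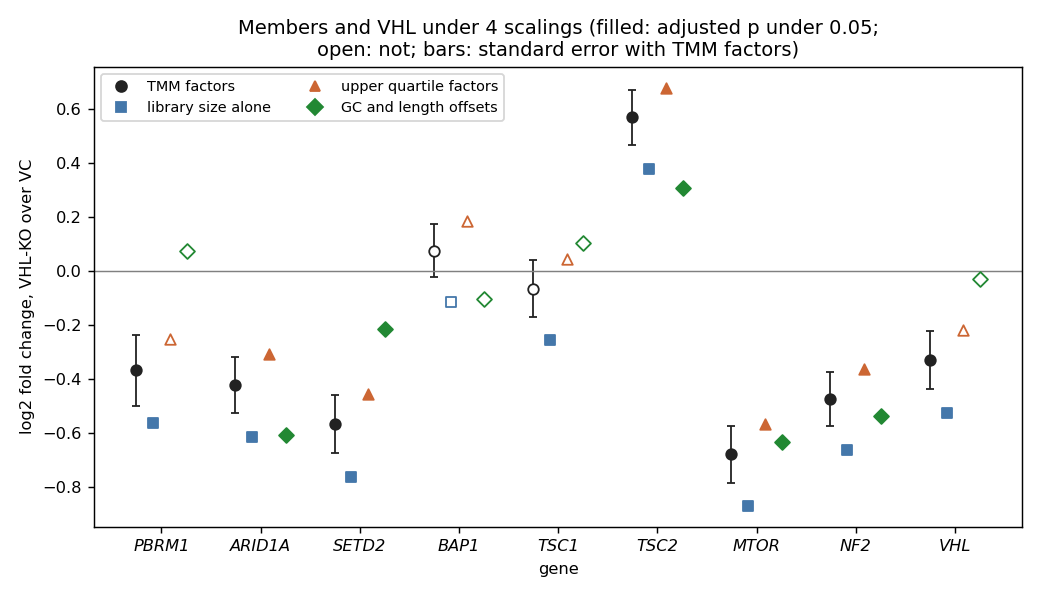
Log2 fold change of VHL-KO over VC (vertical axis) for the 8 members and VHL under TMM factors (circles, bars are standard errors), library size alone (squares), upper quartile factors (triangles) and offsets for GC content and length (diamonds), filled where the edgeR adjusted p was under 0.05. MTOR, NF2, ARID1A, SETD2 and TSC2 kept their direction under all 4, while the sign changed for BAP1 (library size, offsets), TSC1 (upper quartile, offsets) and PBRM1 (offsets).

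Among the chromatin genes, ARID1A, which binds DNA in the BAF form of SWI/SNF, varied little between replicates. It had 40.3, 40.4 and 39.5 CPM in VC and 30.5, 29.2 and 30.0 CPM in VHL-KO samples. The groups were far apart relative to the spread within each. This was a log2 fold change of -0.42 (standard error 0.10, edgeR adjusted p = 0.00122), and of -0.61 with the offsets. The transcript has a GC content of 57.5%, and the 1611 well-expressed genes between 55% and 60% GC had a median of 0.19, the opposite direction.

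PBRM1 encodes a bromodomain subunit of the PBAF form of the complex. It had 16.8, 16.9 and 20.1 CPM in VC and 13.8, 13.9 and 14.0 CPM in VHL-KO samples. All VHL-KO samples lay below all VC samples, and VC replicate 3 was the highest. Its log2 fold change of -0.37 (standard error 0.13, edgeR adjusted p = 0.0189) did not pass the threshold when VC replicate 3 (adjusted p = 0.0961 from edgeR), VHL-KO replicate 1 (0.0610) and, in turn, VHL-KO replicate 2 (0.0534) were left out, or under upper quartile factors (0.0963). By library size it was -0.56. With the offsets the value was 0.075 (edgeR adjusted p = 0.509). The PBRM1 transcript has the lowest GC content of the members, 41.8%, and the 2318 well-expressed genes between 40% and 45% GC had a median of -0.44.

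Around the members, 9 lists of partners and pathways were counted, with 214 distinct tested genes, some of them in more than 1 list. The counts and medians of 6 lists include the members that belong there. Between 60.0% and 82.6% of the tested genes of each list were called in either direction, beside 59.7% of all tested genes. The SWI/SNF (63.0%), Hippo (63.3%) and other mutated gene (60.0%) lists were near that share. Across all tested genes 31.2% were lower and 28.5% higher. Of 27 tested SWI/SNF subunits, PBRM1 and ARID1A included, 14 were lower and 3 higher, with a median log2 fold change of -0.31 and of -0.38 with the offsets (there 16 lower and 2 higher). That median was -0.50 by library size and -0.20 under upper quartile factors. ACTL6A, an actin-related subunit, fell by 1.47 on the log2 scale, from 70.5 ± 10.7 to 25.6 ± 3.01 CPM (mean ± SD of 3 samples per group). ARID1B, the paralog of ARID1A, fell by 0.90, and the core subunit SMARCC1 fell by 0.69 (-0.43 with the offsets). ARID2, a PBAF subunit, had a log2 fold change of -0.44 (edgeR adjusted p = 0.0224) and of 0.043 with the offsets. The ARID2 call was also lost under upper quartile factors (-0.33) and when VC replicate 1 (-0.42), VHL-KO replicate 1 (-0.42) and, in turn, VHL-KO replicate 2 (-0.34) were left out. SMARCA4, an ATPase of the complex, did not pass the threshold (-0.13, edgeR adjusted p = 0.249) but was called lower by library size (-0.32) and with the offsets (-0.38). It was -0.021 under upper quartile factors and ranged from -0.21 to -0.022 with 1 sample left out, never past the threshold. SMARCD3 rose from 6.16 ± 0.738 to 20.1 ± 1.52 CPM (mean ± SD of 3 samples per group), a log2 value of 1.71, although 28.4% of its exonic bases are shared with genes on the opposite strand. BCL7C had a log2 fold change of 0.66, which became -0.21 with the offsets.

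SETD2, the main enzyme known to trimethylate H3K36, had 42.4, 37.1 and 40.7 CPM in VC and 27.2, 26.0 and 27.8 CPM in VHL-KO samples. The lowest VC sample was well above the highest VHL-KO sample. Its log2 fold change was -0.57 (standard error 0.11, edgeR adjusted p = 7.9e-05). With the offsets the fall was smaller, -0.22, and still passed the threshold (edgeR adjusted p = 0.0211). SETD2 has a transcript GC content of 43.6%, in the same range as PBRM1.

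Among 22 tested genes of H3K36 methylation and its readers, SETD2 included, 13 were lower and 4 higher (median log2 fold change -0.46, and -0.16 with the offsets, where 10 were lower and 6 higher). NSD2, a dimethyltransferase for this lysine, fell from 194 ± 12.2 to 71.7 ± 5.99 CPM (mean ± SD of 3 samples per group), a log2 value of -1.44 (standard error 0.096, edgeR adjusted p = 4.7e-12). Its relative NSD1 fell by 0.82. MSH6, a mismatch repair protein that binds the trimethyl mark, fell by 1.52, and PHF19, a Polycomb-associated reader, fell by 1.43. The rises were led by the demethylase KDM4B (1.48), the reader PHF1 (1.21) and the DNA methyltransferase DNMT3A (0.57, and 0.37 by library size). The exons of MSH6 overlap genes on the other strand over 24.2% of their bases.

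BAP1 had 92.6, 109 and 88.7 CPM in VC and 99.5, 96.3 and 109.9 CPM in VHL-KO samples. The ranges of both groups lay over each other. The log2 fold change was 0.074 (standard error 0.099, edgeR adjusted p = 0.534). It was 0.19 under upper quartile factors, -0.12 by library size and -0.10 with the offsets, none of them past the threshold. With 1 sample left out it ranged from 0.020 to 0.19, highest without VC replicate 2 (adjusted p = 0.0577 from edgeR). Its transcript GC content is 58.8%.

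Of 21 tested genes in the list of BAP1, its partners and writers of H2A ubiquitin, 12 were lower and 4 higher, with a median log2 fold change of -0.36 and of -0.25 with the offsets (there 12 lower and 2 higher), or -0.55 by library size. The cofactor HCFC1 fell from 198 ± 18.6 to 95.5 ± 10.9 CPM (mean ± SD of 3 samples per group), a log2 value of -1.06. ASXL1 and ASXL2, which activate BAP1, had log2 fold changes of -0.49 and -0.92, which became -0.48 and -0.51 with the offsets, so that they no longer differed beyond their standard errors. The forkhead factor FOXK2 fell by 0.36 (-0.55 by library size). PCGF6 fell by 1.76 and RNF2, a ubiquitin ligase of Polycomb complex PRC1, fell by 1.06 (-0.43 with the offsets). YAF2 (0.83, and larger with the offsets), PCGF3 (0.71) and PCGF1 (0.40) were higher. For PCGF3, 23.2% of exonic bases overlap genes on the other strand. PCGF1 did not pass the threshold with the offsets (0.076), by library size (0.21) or without VHL-KO replicate 2 (0.32).

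The kinase MTOR had 53.4, 64.8 and 57.7 CPM in VC and 34.5, 36.5 and 38.8 CPM in VHL-KO samples. Every VHL-KO sample was below every VC sample. Its log2 fold change of -0.68 (standard error 0.11, edgeR adjusted p = 5.4e-06) became -0.63 with the offsets. The transcript GC content of 52.3% falls in a range whose 1697 well-expressed genes had a median of -0.011. Exons of MTOR share 2.77% of their bases with ANGPTL7 and MTOR-AS1 on the opposite strand, and whether counting used strand is not given in the sources used here.

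TSC2, the GTPase-activating subunit, had 54.7, 64.4 and 49.9 CPM in VC and 83.0, 81.7 and 85.7 CPM in VHL-KO samples. It was the only member called higher, and every VHL-KO sample exceeded every VC sample. The change was 0.57 on the log2 scale (standard error 0.10, edgeR adjusted p = 3.8e-05). It was 0.38 by library size and 0.31 with the offsets (edgeR adjusted p = 0.000233). Its transcript has the highest GC content of the members, 60.4%, and the 1240 well-expressed genes between 60% and 65% GC had a median of 0.38. PKD1 shares 3.82% of the exonic bases of TSC2 from the other strand.

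TSC1, which stabilizes TSC2, had 43.6, 48.3 and 43.8 CPM in VC and 39.0, 43.8 and 46.9 CPM in VHL-KO samples. The groups overlapped. The log2 fold change was -0.066 (standard error 0.11, edgeR adjusted p = 0.604). It was 0.045 under upper quartile factors, 0.10 with the offsets and 0.011 without VHL-KO replicate 1, and by library size it was called lower (-0.26, edgeR adjusted p = 0.0406). TBC1D7, another subunit of this complex, rose by 0.52 on the log2 scale (edgeR adjusted p = 0.00146, and 0.34 with the offsets), and RHEB, its target, fell by 0.41 (edgeR adjusted p = 0.000468).

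Promoter windows of 300 bases are shown for 4 members, 2 with and 2 without the letters searched for, because the factors stabilized when VHL is absent bind DNA at a short core. The windows are from RefSeq (GRCh38.p14), which gave 10 windows for 7 of the 8 members, without BAP1. The letters ACGTG were searched on both strands (CACGT on the other), overlapping matches included, so that CACGTG counts for both. Capitals mark these letters. GCGTG, a further form of the core, was not searched and is not marked where it occurs. The MTOR window holds it, and the SETD2 window holds its reverse complement CACGC.
PBRM1 promoter, chr3:52685864-52686163, minus strand: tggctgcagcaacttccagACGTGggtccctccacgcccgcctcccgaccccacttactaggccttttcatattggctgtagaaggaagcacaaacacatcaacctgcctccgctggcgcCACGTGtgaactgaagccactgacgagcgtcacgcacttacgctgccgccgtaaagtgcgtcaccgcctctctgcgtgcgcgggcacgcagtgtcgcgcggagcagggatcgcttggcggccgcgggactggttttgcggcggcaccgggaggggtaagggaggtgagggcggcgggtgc
TSC2 promoter, chr16:2047735-2048034, plus strand: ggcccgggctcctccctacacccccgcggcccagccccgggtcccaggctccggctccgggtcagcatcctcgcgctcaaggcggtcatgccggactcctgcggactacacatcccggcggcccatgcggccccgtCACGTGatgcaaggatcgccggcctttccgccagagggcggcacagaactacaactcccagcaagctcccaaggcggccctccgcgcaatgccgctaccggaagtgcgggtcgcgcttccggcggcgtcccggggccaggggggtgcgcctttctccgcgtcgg
MTOR promoter, chr1:11262502-11262801, minus strand: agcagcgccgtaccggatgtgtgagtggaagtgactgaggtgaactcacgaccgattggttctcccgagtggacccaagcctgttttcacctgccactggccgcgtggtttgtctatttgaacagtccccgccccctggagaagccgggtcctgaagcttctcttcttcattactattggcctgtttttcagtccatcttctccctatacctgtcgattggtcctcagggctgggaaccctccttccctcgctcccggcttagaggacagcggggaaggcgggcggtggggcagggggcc
SETD2 promoter, chr3:47164064-47164363, minus strand: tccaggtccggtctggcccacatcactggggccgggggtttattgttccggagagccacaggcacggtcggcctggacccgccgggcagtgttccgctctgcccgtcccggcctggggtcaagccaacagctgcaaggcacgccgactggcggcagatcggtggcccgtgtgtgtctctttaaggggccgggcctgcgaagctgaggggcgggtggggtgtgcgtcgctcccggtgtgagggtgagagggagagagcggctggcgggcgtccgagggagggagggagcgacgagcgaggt
ACGTG was in 2 of the 10 windows, 1 of PBRM1, whose call was not kept under every alternative, and 1 of TSC2 (higher). It was in 21.4% of all 35116 promoter windows. The windows of NF2 and ARID1A (both lower) and of TSC1 lack ACGTG and are not shown. The letters GGGCGG, on either strand, were in all 10 windows of the 7 members and in 45.0% of all windows. These letters are only G and C. The 10 windows had a GC content of 59.3% to 82.3%, above the median of 58.7% over all promoters. CCAAT, on either strand, was in 4 of the 10 windows, from 3 members (PBRM1, MTOR and NF2), and in 34.6% of all windows. A match describes these letters only.

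The other subunits of the MTOR complexes did not all move one way. Of 12 tested, MTOR included, 5 were lower and 4 higher, with a median log2 fold change of 0.18, which was -0.014 by library size, 0.29 under upper quartile factors and -0.17 with the offsets (6 lower and 4 higher). DEPTOR, an inhibitor of both complexes, rose from 4.02 ± 0.128 to 8.65 ± 0.880 CPM (mean ± SD of 3 samples per group), a log2 value of 1.11 (standard error 0.17, edgeR adjusted p = 5.1e-06). PRR5, a subunit of mTORC2, rose by 1.00 (0.39 with the offsets). PRR5L, which was not well expressed, had 18, 14 and 14 reads in VC and 166, 130 and 107 reads in VHL-KO samples. Its log2 value of 3.66 (3.88 with the offsets) was the largest rise of the list. TTI1 and TTI2, which help assemble the kinase, had log2 fold changes of -0.67 and -0.90, although 24.5% of the exonic bases of TTI2 overlap a gene on the opposite strand. MLST8 had a log2 fold change of 0.45, of 0.26 by library size and of -0.12 with the offsets. RPTOR and RICTOR, which define the 2 complexes, had values of 0.18 and 0.26 and did not pass the threshold (edgeR adjusted p = 0.119 and 0.287). RPTOR was called higher under upper quartile factors (0.29) and without VC replicate 2 (0.31), and was -0.012 by library size and -0.078 with the offsets. RICTOR was called higher with the offsets (0.85) and was 0.067 by library size. With 1 sample left out RICTOR ranged from 0.068 to 0.48, not past the threshold in any.

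Of 44 tested genes upstream of mTORC1, TSC1 and TSC2 included, 16 were higher and 17 lower, with a median log2 fold change of -0.072, which was -0.27 by library size, 0.042 under upper quartile factors and 0.0074 with the offsets (18 higher and 14 lower). With 1 sample left out this median ranged from -0.14 to -0.041. RRAGD, a Rag GTPase that brings mTORC1 to lysosomes, had 1.79, 2.56 and 1.82 CPM in VC and 28.4, 32.2 and 32.2 CPM in VHL-KO samples. The groups lay further apart than the samples within either group. This was a log2 fold change of 3.92 (standard error 0.16, edgeR adjusted p = 9.0e-16). PRKAA2, a catalytic subunit of AMPK, rose from 0.864 ± 0.267 to 7.30 ± 0.682 CPM (mean ± SD of 3 samples per group), a log2 value of 3.07 (3.67 with the offsets). PRKAA1, the other catalytic subunit and the more abundant one in VC cells, fell from 16.6 ± 3.21 to 8.80 ± 1.12 CPM, a log2 value of -0.92 (-0.28 with the offsets). LAMTOR4, of the Ragulator anchor, rose by 1.29 (0.49 with the offsets). The lysosomal arginine sensor SLC38A9 fell by 1.19 (-0.72 with the offsets), the kinase PDPK1 fell by 1.03 and the GATOR2 subunit SEH1L fell by 1.00. Genes on the other strand overlap 23.7% of the exonic bases of PDPK1.

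Among 19 tested genes downstream of mTORC1, 9 were higher and 4 lower (median log2 fold change 0.21, 0.021 by library size, 0.33 under upper quartile factors, 0.36 with the offsets, where 10 were higher and 6 lower). PDCD4, a translation inhibitor, rose by 1.05 (1.65 with the offsets), the autophagy kinase ULK1 rose by 0.91 (0.56) and the lysosomal regulator TFEB rose by 0.85 (0.36). The cap-binding protein EIF4E fell from 43.0 ± 10.1 to 17.1 ± 0.423 CPM (mean ± SD of 3 samples per group), a log2 value of -1.33 (-0.79 with the offsets). EEF2K fell by 0.85 and EIF4G1 fell by 0.55. Exons of PDCD4 overlap a gene on the other strand over 28.1% of their bases. EIF4EBP1, which binds EIF4E, did not pass the threshold (0.18, edgeR adjusted p = 0.123). It was called higher under upper quartile factors (0.29) and without VC replicate 2 (0.29), was 0.11 without VC replicate 3 and -0.014 by library size, and was called lower with the offsets (-0.63).

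NF2 had 280.3, 319 and 260.3 CPM in VC and 191, 189 and 238 CPM in VHL-KO samples. All VHL-KO samples were lower than all VC samples, and VHL-KO replicate 3 came closest to them. The log2 fold change was -0.47 (standard error 0.10, edgeR adjusted p = 0.000273), and -0.54 with the offsets. Its transcript GC content is 55.6%, in the range of ARID1A.

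In the Hippo pathway list, which includes NF2, 18 of 30 tested genes were lower and 1 was higher, with a median log2 fold change of -0.52 beside -0.010 for all genes. With the offsets the median was -0.38, with 16 lower and 7 higher. FRMD6, a relative of merlin, fell from 28.1 ± 4.85 to 5.90 ± 1.51 CPM (mean ± SD of 3 samples per group), a log2 value of -2.26. WWC2 fell by 1.21 and the kinase LATS2 fell by 1.15. LATS1 (-0.77) and YAP1 (-0.53) were lower, and neither passed with the offsets (-0.23 and -0.12). VGLL4, which competes with YAP1 for TEAD factors, was the 1 gene called higher (0.83). Genes on the opposite strand overlap 23.8% of the exonic bases of VGLL4 and 21.8% of those of WWC2.

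Of 23 tested genes known to be switched on by YAP and TAZ, 17 were lower and 2 higher (median log2 fold change -0.64, and -0.47 with the offsets, where 17 were lower and 3 higher). CCN1 had 263, 285 and 269 CPM in VC and 179.5, 169 and 176 CPM in VHL-KO samples. The groups did not overlap, and the log2 fold change was -0.64 (standard error 0.086, edgeR adjusted p = 6.9e-07). CCN2 fell by 0.37 (edgeR adjusted p = 0.00492), a call that was lost without VHL-KO replicate 1 (adjusted p = 0.0653 from edgeR), and its value was -0.56 by library size. ANKRD33B fell by 2.06, FJX1 fell by 1.31 and CRIM1 fell by 1.20. IGFBP3 went the other way, from 105 ± 6.66 to 1050.0 ± 45.6 CPM (mean ± SD of 3 samples per group), a log2 value of 3.33, and RBMS3 rose by 0.69 (1.29 with the offsets).

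**Figure D3:**
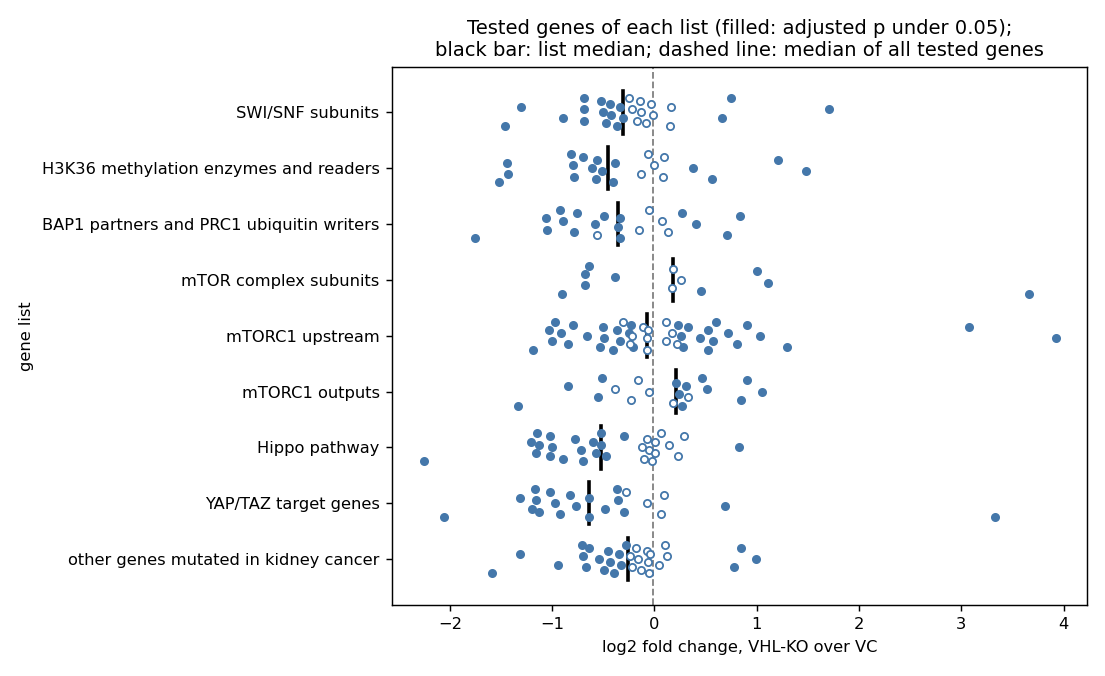
Log2 fold change of VHL-KO over VC (horizontal axis) of each tested gene in 9 lists (vertical axis), with filled points for an edgeR adjusted p under 0.05, black bars for list medians and a dashed line for the median of all tested genes (-0.010). The Hippo and YAP/TAZ lists have medians of -0.52 and -0.64, and the mTOR complex list has one of 0.18, which was -0.014 by library size and -0.17 with the offsets.

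Of 30 other genes known to be mutated in kidney cancer, VHL included, 15 were lower and 3 higher. This was 60.0% in either direction, beside 59.7% of all tested genes. The median log2 fold change was -0.26 (-0.46 by library size, -0.15 under upper quartile factors, -0.11 with the offsets). With the offsets 14 were lower and 9 higher. The histone demethylase KDM6A fell by 1.59, the citric acid cycle enzyme FH fell by 1.31 and the ubiquitin ligase scaffold CUL3 fell by 0.94 (-0.35 with the offsets). KDM5C, another histone demethylase, fell by 0.35 (-0.54 by library size). SDHA (0.99) and SDHAF2 (0.77) were higher, beside TFEB. SDHA has near-identical copies in the genome, and 21.7% of its exonic bases and 44.8% of those of SDHAF2 lie in another gene on the same strand, so both values are uncertain. CDKN2A had too few reads to be tested.

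Levels were compared between members only per length, as TMM-normalized CPM per kilobase of exons (mean ± SD of 3 samples). In VC cells NF2 was highest (38.7 ± 4.02), then BAP1 (20.5 ± 2.32) and MTOR (4.38 ± 0.430). SETD2 (2.80 ± 0.189), TSC2 (2.74 ± 0.360), TSC1 (2.57 ± 0.151) and ARID1A (2.52 ± 0.0325) followed, with neighbours in this order that did not differ beyond their spread. PBRM1 was lowest (1.86 ± 0.192). In VHL-KO cells NF2 (27.9 ± 3.72) and BAP1 (21.6 ± 1.51) again had the highest levels, and TSC2 (4.07 ± 0.0987) stood above MTOR (2.74 ± 0.162) and TSC1 (2.46 ± 0.225). SETD2 (1.89 ± 0.0660) and ARID1A (1.88 ± 0.0410) did not differ beyond their spread, and PBRM1 (1.44 ± 0.0128) was again lowest. The lengths are those of all annotated exons, which these cells may not all use.

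Ratios of 2 genes within a sample do not depend on how libraries are scaled. Of 8 ratios compared, 4 did not overlap between the groups. Taken singly, 64.7% of all tested genes did not overlap. The log2 ratio of MTOR to TSC2, in reads per kilobase, was 0.59, 0.63 and 0.83 in the VC samples, and it was -0.65, -0.55 and -0.52 in the VHL-KO samples. The groups did not overlap and differed by -1.25 (-0.94 with the offsets). This difference combines the fall of MTOR and the rise of TSC2 given above and is not a separate result. The difference does not depend on the exon lengths, whereas the position against 0 does: by reads alone MTOR and TSC2 had 1825, 1926 and 2191 and 1867, 1913 and 1894 in the VC samples. The ratio of TSC1 to TSC2 differed by -0.64 (-0.20 with the offsets). The ratio of ARID1A to ARID1B differed by 0.48 (0.32 with the offsets). That of ASXL1 to ASXL2 differed by 0.41, by 0.24 to 0.58 with 1 sample left out and by 0.021 with the offsets, where its groups overlapped. For these 4 the two-sided exact permutation test gave p = 0.1, the smallest that 3 against 3 samples allow, and 0.2 after Benjamini-Hochberg adjustment over 8 ratios, so none could pass 0.05. The groups overlapped for PBRM1 to ARID1A (0.061), PBRM1 to ARID2 (0.086), RPTOR to RICTOR (-0.089) and LATS1 to LATS2 (0.35). With the offsets 6 of the 8 ratios did not overlap, among them PBRM1 to ARID1A (0.68), RPTOR to RICTOR (-0.91) and LATS1 to LATS2 (0.78).

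**Figure D4:**
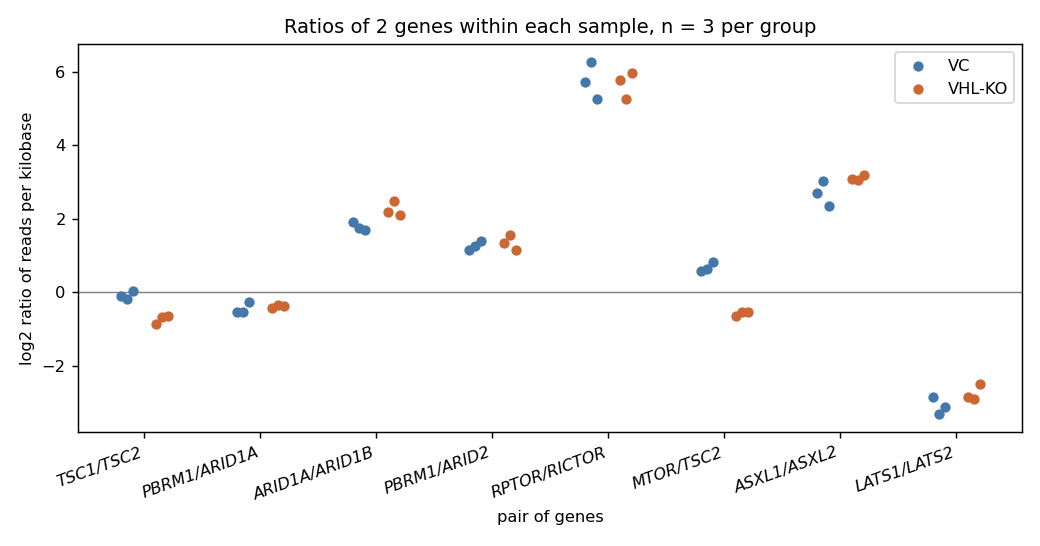
Log2 ratio of reads per kilobase of 2 genes in the same sample (vertical axis) for 8 pairs (horizontal axis), with 3 VC and 3 VHL-KO samples as points. The points of MTOR to TSC2 do not overlap between the groups (-1.25), and positions against 0 depend on the exon lengths used.

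The chromosome 3 interval from VHL to PBRM1, which also holds SETD2 and BAP1, was described beside the rest of the genome. Of 291 tested genes that start in it, 87 were lower and 84 higher, 58.8% in all, with a median log2 fold change of -0.032. That median had no stable sign, as it ranged from -0.056 to 0.013 with 1 sample left out and was 0.084 under upper quartile factors. On all of chromosome 3 there were 288 lower and 279 higher among 947 (59.9%), and the median was -0.022 (0.096 with the offsets, against -0.012 in the interval). Across all tested genes 59.7% passed and the median was -0.010. Next, 5 tested genes on each side were taken, whatever their distance. Around SETD2 1 was lower and 3 were higher, among the latter SLC6A20, the farthest on its side. Around BAP1 there were 2 lower and 3 higher, and around PBRM1 3 lower and 2 higher, and these last neighbourhoods share genes. Well-expressed neighbours that changed include KLHL18 beside SETD2 (-0.96), PPM1M (0.75, and 0.42 with the offsets) and NT5DC2 (-0.73) beside BAP1, and NEK4 beside PBRM1 (-1.69). DNA copy number was not measured.

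**Figure D5:**
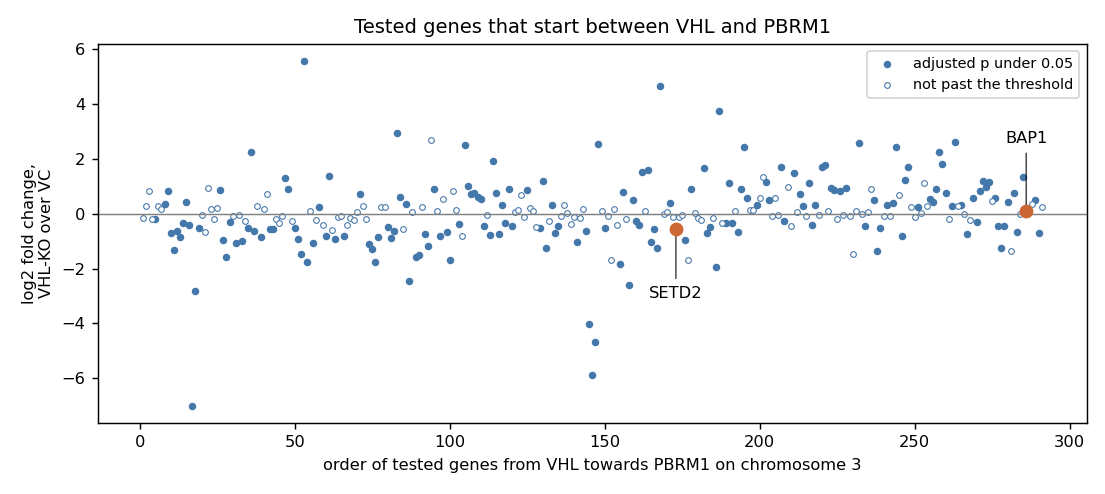
Log2 fold change of VHL-KO over VC (vertical axis) of the 291 tested genes that start between VHL and PBRM1, in their order along chromosome 3 (horizontal axis), with filled points for an edgeR adjusted p under 0.05. SETD2 and BAP1 are marked, and 87 genes were lower and 84 higher.

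The gene whose CPM followed each member most closely over the 6 samples was found among 10909 genes. By Pearson's r these were TRIM14 for ARID1A (0.9999), TNFRSF1A for TSC2 (0.9996), MFAP3 for PBRM1 (0.9990), DKK3 for NF2 (0.9982), SNX25 for SETD2 (0.9980), ZPR1 for MTOR (0.9978), ATP13A1 for BAP1 (0.989) and TNPO2 for TSC1 (0.978). With 6 samples in 2 groups such values describe likeness only.

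Caki-1 was checked against markers of its labelled origin. Of 15 kidney epithelial markers 13 were tested, of which 7 were higher and 2 lower, or 4 and 4 with the offsets. Without the offsets this was 69.2% in either direction, beside 59.7% of all tested genes. Their summed level was between 7704.6 and 8876.7 CPM in the 6 samples. Most of it was VIM, with 6430.3 ± 445 CPM in VC and 6135 ± 249 CPM in VHL-KO cells (mean ± SD of 3 samples per group). VIM is known from many cell types and shares 24.6% of its exonic bases with genes on the other strand, so the sum says little about origin. PAX8, the renal lineage factor, had 427 ± 38.8 CPM in VC and 614 ± 14.2 CPM in VHL-KO cells (mean ± SD of 3 samples per group), and 22.4% of its exonic bases overlap PAX8-AS1. The kidney cadherin CDH16 rose by 3.42, while the transcription factor LHX1 fell by 1.67, from 55.3 ± 2.65 to 17.4 ± 1.35 CPM, and the adhesion molecule EPCAM fell by 1.42, at 56, 31 and 50 reads in the VC samples and 17, 14 and 4 reads in the others. PAX2 had no read in any sample and CDH1 had fewer than 10 in each. CA9, a known target of the hypoxia factors, had 0, 0 and 2 reads in VC and 288, 247 and 233 reads in VHL-KO samples, and 35.7% of its exonic bases overlap a gene on the other strand.

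Markers of other cell types were also summed. Of 10 leucocyte markers 2 were tested, and the list summed to between 1.55 and 2.42 CPM in VC and between 3.98 and 5.74 CPM in VHL-KO samples, so that the groups did not overlap. Its most abundant gene, CD14, was higher in VHL-KO cells (1.47, edgeR adjusted p = 7.0e-06, 0.87 with the offsets), while CD3E, CD3D, MS4A1 and FCGR3A had no read. Of 8 endothelial markers 1 was tested. The list summed to between 0.202 and 0.322 CPM in VC and between 0.324 and 0.711 CPM in VHL-KO samples. These ranges nearly touched, and 7 of the 8 genes had fewer than 10 reads in every sample, so their order carries no weight. PECAM1, the tested gene, had 1, 5 and 0 reads in VC and 14, 7 and 9 reads in VHL-KO samples and was called higher (edgeR adjusted p = 0.0117), while TEK, CLDN5 and ERG had no read. Of 7 fibroblast markers 2 were tested and both were lower, COL1A1 (-0.42, and -0.70 with the offsets) and PDGFRB (-1.94). That list summed to between 37.2 and 47.2 CPM in VC and between 25.5 and 30.0 CPM in VHL-KO samples, mostly COL1A1, with COL3A1 and LUM without a read. The part of these genes in the members' changes was not tested. A count of 0 allows up to 3 counts at 95% confidence, which is 0.0860 CPM in the deepest and 0.133 CPM in the shallowest sample before TMM correction, for counting error only.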

How the data were processed

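RNA-seq of 3 VC and 3 VHL-KO samples was analysed, grouped by the labels. The authors trimmed reads with Trim Galore and cutadapt, aligned them with STAR to GRCh38.p13, kept single-location reads with SAMtools and counted reads per gene with HTSeq. The deposited values are raw counts. Tool versions, annotation release and use of strand are not given in the sources used here.

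The groups were compared in edgeR 4.0.16 under R 4.3.3 (TMM factors, quasi-likelihood F test, two-sided) on 17401 genes that reached 10 reads in 1 sample or more, with Benjamini-Hochberg adjustment over all of them. Standard errors are the absolute log2 fold change over the square root of F. Lengths, GC content, positions and overlaps came from GENCODE release 44, which held 17355 of these genes. Well-expressed genes had a mean of 100 normalized counts or more.

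The members and lists were chosen with earlier results of these data known. Named in each list were preset partners and up to 3 rises and 3 falls, the largest past the threshold among well-expressed genes whose groups did not overlap. PRKAA1 was added beside PRKAA2, and PRR5L beside PRR5, outside this rule. Alternatives were DESeq2 1.42.0, other factors and filters, each sample left out, the replicate number as a block, and offsets for GC content and length (natural splines, 5 degrees of freedom). The fit was tested on simulated data.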

Additional observations from a re-analysis of the deposited data

How the results depend on the processing

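MTOR, SETD2, NF2, ARID1A and TSC2 kept their direction and their calls under every normalization, filter, tool, offset and left-out sample tried, and between 5 and 7 members passed the threshold. VHL ranged from -0.39 to -0.28 (log2) with 1 sample left out and was no longer called with upper quartile factors (-0.22), with offsets for GC content and length (-0.029), or with these and the replicate block (-0.034). Signs changed with the offsets alone and with the replicate block added for PBRM1 (0.075 and 0.076), BAP1 (-0.10 and -0.10), TSC1 (0.10 and 0.10), ARID2 (0.043 and 0.042), ATP13A1 (-0.20 and -0.20), BCL7C (-0.21 and -0.21), EIF4EBP1 (-0.63 and -0.63), MLST8 (-0.12 and -0.12) and RPTOR (-0.078 and -0.077). They changed by library size for BAP1 (-0.12), ATP13A1 (-0.10), EIF4EBP1 (-0.014) and RPTOR (-0.012), and with upper quartile factors for TSC1 (0.045) and TNPO2 (0.071). With 1 sample left out, TSC1 ranged from -0.13 to 0.011, TNPO2 from -0.073 to 0.023, the log2 ratio of PBRM1 to ARID1A from 0.013 to 0.16, that of LATS1 to LATS2 from 0.22 to 0.48, that of PBRM1 to ARID2 from -0.021 to 0.19 and that of RPTOR to RICTOR from -0.33 to 0.17. The cause was not tested.

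Replicate numbers did not pair the samples: deviations of same-numbered samples had r between -0.0994 and 0.202, above 0.1 in 1 of 3 pairs, and 4 of 6 samples correlated best with their own number. With the replicate block, all genes past the threshold numbered 10284 in place of 10394, and members 6 in place of 6. Among tested genes named from the 9 partner and pathway lists, low counts limit PRR5L, PRKAA2, PCGF6 and LATS1 most. Their lowest samples had 14, 19, 36 and 50 reads. The marker genes CA9, PECAM1 and EPCAM had fewer still.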
